A study of Mus musculus with 7 samples.

Results

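Ribosomal protein pseudogenes that gave RNA-seq counts were examined in the interscapular brown fat of mice with and without PGAM5, a phosphatase of mitochondria. Members were chosen by name and by summed counts, not by the difference between groups: a gene was included when its symbol began with Rpl or Rps, contained -ps and had 60 or more raw counts summed over 6 libraries. Of 53715 gene identifiers in the count table, 297 had such a symbol, and 74 of these reached the minimum. Another 98 had 1 to 59 counts and 125 had 0 counts. The 74 pseudogenes carry the names of 37 parent genes, 43 being copies of large-subunit (Rpl) and 31 of small-subunit (Rps) genes. The annotation lists 67 as processed pseudogenes, 3 as transcribed processed pseudogenes (Rps2-ps10, Rpl10-ps1 and Rps26-ps1) and 4 as protein coding (Rps12-ps3, Rpl9-ps6, Rpl10-ps3 and Rpl36a-ps1).

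Tissue came from male mice of the C57BL/6J strain at 10 weeks of age, either wild-type (WT) or knockout for PGAM5 (KO). Poly(A) RNA was sequenced from separate animals, and 3 WT libraries (WT1 to WT3) and 3 KO libraries (KO1 to KO3) were compared. A KO4 library is listed in the labels and was not analysed here. How the knockout was made, and whether WT and KO mice were littermates, is not given in the sources used here.

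Ribosomal proteins assemble with ribosomal RNA into the small and large subunits of the cytosolic ribosome, and their mRNAs are among the most abundant of a cell. Processed pseudogenes arise when a mature mRNA is reverse transcribed and inserted elsewhere in the genome, without introns. Because ribosomal protein mRNAs are abundant in the germ line, their genes have left many such copies, and recent copies are nearly identical to the parent. A short read from the mRNA of the parent can therefore match a pseudogene as well as the parent, so that counts assigned to a pseudogene may come from either.

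Total counts ran from 18034204 to 33617762 per library, and genes of the mitochondrial genome took 19.7% to 43.0% of them. WT2 (-65.0) and KO3 (66.8) lay at opposite ends of principal component 1, which carried 45.6% of the variance, with the other 4 libraries between -13.0 and 8.23. Pgam5 had counts of 167, 122 and 186 in WT against 1, 3 and 11 in KO. All 9 brown adipocyte markers listed had counts in every library, with summed CPM of 13636 to 16951 in WT and 15572 to 17871 in KO. CPM are counts scaled to a common library size, here with TMM factors, and a count of 0 allows up to 0.0892 to 0.166 unscaled CPM (3 counts, counting error only).

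The sequences of the Rps13 and Rps15a copies are shown because the pseudogenes with the clearest WT-KO differences belong to these parents. Each line runs 5′ to 3′ in the sense of the parent's mRNA, from the GENCODE M21 transcripts (mm10), and capitals mark bases that differ from the parent. Positions count from 1 at the A of the parent's start codon. The first set spans coding positions 379 to 453 of Rps13, which encodes a small-subunit protein. Rps13-ps1 lies at chr8:87048098-87048172 here (plus strand), Rps13-ps4 at chr8:119602173-119602247 (minus strand) and Rps13-ps2 at chr7:88530446-88530520 (minus strand).
Rps13: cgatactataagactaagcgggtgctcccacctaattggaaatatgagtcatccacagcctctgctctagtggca
Rps13-ps1: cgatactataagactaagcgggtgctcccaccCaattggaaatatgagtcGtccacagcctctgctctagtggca
Rps13-ps4: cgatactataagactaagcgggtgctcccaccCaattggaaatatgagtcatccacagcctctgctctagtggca
Rps13-ps2: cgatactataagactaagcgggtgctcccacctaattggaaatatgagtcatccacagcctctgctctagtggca

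Over the whole coding sequence, Rps13-ps1 differed from Rps13 by T411C and A429G. Rps13-ps4 shared T411C and had C106A and G121C besides. Rps13-ps2 was identical to the parent over all 453 bases of its annotation, so that no read lying wholly inside it can be told from a read of Rps13 by sequence.

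The second set spans coding positions 120 to 179 of Rps15a, which encodes another small-subunit protein. Rps15a-ps5 lies at chr5:105797535-105797594 here, Rps15a-ps6 at chr11:6172858-6172917 and Rps15a-ps7 at chr2:152185505-152185564, all on the minus strand. Rps15a-ps3 lies at chr4:150847234-150847293 on the plus strand.
Rps15a: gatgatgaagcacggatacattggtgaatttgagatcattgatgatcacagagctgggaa
Rps15a-ps5: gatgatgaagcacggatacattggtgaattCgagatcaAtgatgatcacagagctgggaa
Rps15a-ps6: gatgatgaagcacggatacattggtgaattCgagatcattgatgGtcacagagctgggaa
Rps15a-ps7: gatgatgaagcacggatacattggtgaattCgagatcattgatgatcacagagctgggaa
Rps15a-ps3: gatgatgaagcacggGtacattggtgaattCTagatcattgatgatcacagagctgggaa

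All 4 Rps15a copies shown carried T150C relative to the parent. Each had further bases of its own, among them T158A in Rps15a-ps5, A164G in Rps15a-ps6 and C362G in Rps15a-ps7. Rps15a-ps3, which had 7 differences, also carried A135G and G151T.

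Likeness to the parent was general among the 74 pseudogenes. Over the aligned bases the median identity was 99.3% (87.5% to 100%), 50 were at 99% or more, and 12 were identical to the parent without gaps. Each annotated pseudogene was divided into overlapping windows of 50 bases, and a window was called unique when no other annotated transcript contained it on the same strand. Unique windows made up a median of 12.7% of a pseudogene's windows. In 18 pseudogenes there were none, and these 18 held 39.5% of all counts assigned to the group. At the other end, Rpl26-ps6 had 96.4% unique windows and an identity of 90.3%. Rpl36a-ps3 had an identity of 87.5% to Rpl36a, its parent by name, and 18.4% unique windows. It shared 0 of its 272 windows with Rpl36a and 222 with Rpl36al. Its identity and its ratio to the parent were nevertheless taken against Rpl36a. An open reading frame, from ATG to a stop inside the annotation, as long as the parent's coding sequence was present in 42 pseudogenes, and in 19 the longest such frame covered under 50% of it. Unannotated parts of the genome were not searched.

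The group as a whole took a small share of the RNA. The 74 pseudogenes took 0.0618%, 0.0603% and 0.0586% of all counts in WT1 to WT3 and 0.0588%, 0.0487% and 0.0359% in KO1 to KO3. The ranges overlapped only through KO1 (exact two-sided permutation p = 0.2, where 3 libraries against 3 cannot go below 0.1). Set against the counts of the 79 cytosolic ribosomal protein genes in the same library, they amounted to 3.80%, 2.75% and 3.98% in WT and 3.25%, 3.21% and 3.51% in KO (exact permutation p = 0.7). WT2 was the lowest of all libraries by this measure. In whole tissue, fewer cells of a type and less RNA per cell cannot be told apart.

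Mean levels ran from 0.425 to 42.6 CPM with a median of 2.66, and 19 pseudogenes were at 10 CPM or more and 19 under 1 CPM. The minimum of 60 counts fixed the lower end: Rpl3-ps2 (63 counts) and Rpl26-ps6 (65) lay just inside it, Rpl18-ps2 (57) and Rpsa-ps1 (55) just outside. The 8 pseudogenes of highest mean CPM were Rpl14-ps1, Rps10-ps2, Rps12-ps3, Rpl31-ps8, Rpl9-ps6, Rps16-ps2, Rpl3-ps1 and Rpsa-ps10, which held 45.9% of the group's counts. Per kilobase of annotated length, Rpl38-ps2 was highest at 96.6 CPM per kb, followed by Rpl31-ps8 (81.7), Rps10-ps2 (79.7) and Rps12-ps3 (77.7). Rpl38-ps2, Rpl31-ps8 and Rps12-ps3 had no unique window.

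**Figure D1:**
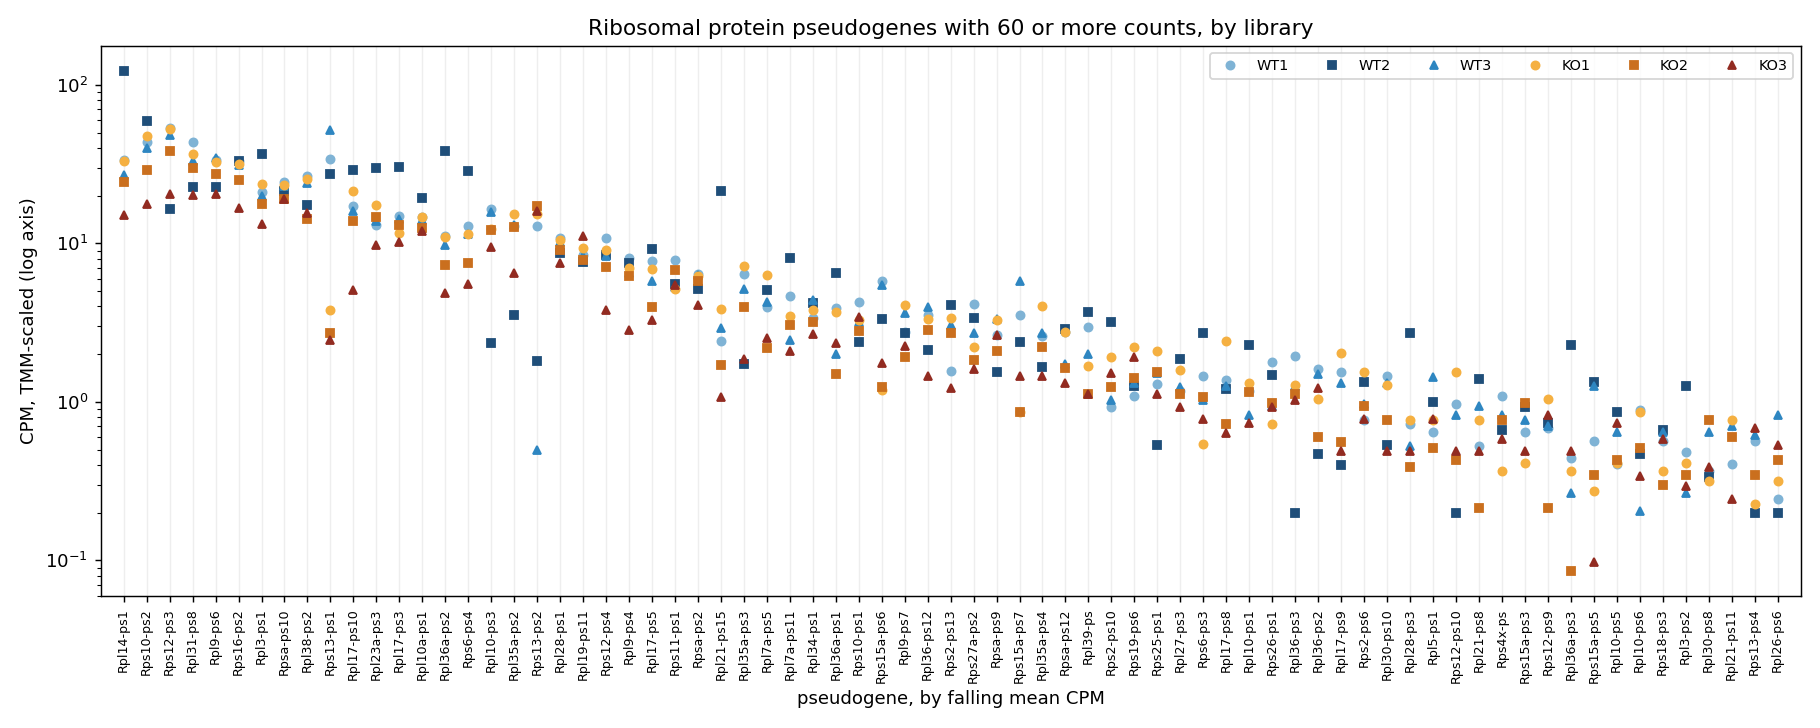
Level of 73 of the 74 pseudogenes (x axis, by falling mean) in CPM on a log axis, 1 point per library, blue for WT and orange to red for KO; a count of 0 (Rpl21-ps11 in WT2) is not drawn. Rps13-ps1 shows WT points at 27.3 to 52.0 CPM above KO points at 2.44 to 3.82 CPM, while WT2 lies far from the other libraries for Rpl14-ps1, Rpl21-ps15 and Rpl10-ps3.

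Differences between KO and WT were tested with edgeR's quasi-likelihood test over 15123 genes, with a Benjamini-Hochberg adjusted p of 0.05 as the threshold. The test could be made for 71 of the 74 pseudogenes, while Rpl36a-ps3, Rpl30-ps8 and Rpl3-ps2 were under the filter on low counts. Of the 71, 1 was lower in KO (Rps13-ps1) and 0 were higher, where 0.0397% of all genes tested were lower and 0.0198% higher. At an unadjusted edgeR p under 0.05, 11 were lower, against 5.49% of all genes, and 0 were higher, against 6.3%. KO and WT libraries did not overlap for 9 pseudogenes with KO below WT and for 2 with KO above, where all genes gave 9.39% and 10.1%. DESeq2 called 3 lower (Rps13-ps1, Rps15a-ps6 and Rps15a-ps7) and 0 higher, against 0.553% and 0.566% of the genes to which it gave an adjusted p. For 6 pseudogenes 1 of the groups, KO in each case, summed to under 30 counts, so that WT had to supply most of the 60. The tested ones among these were Rps15a-ps5, Rps18-ps3, Rpl26-ps6 and Rps13-ps4. Each had a negative log2 fold change and stays in the counts of negative values below. Rps15a-ps5 is also among the 11 and the 9 given above.

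Log2 fold changes (KO against WT) were negative for 60 of the 71 pseudogenes, with a median of -0.31, against 50.2% negative and a median of -0.0019 for all genes tested. The parents stood lower still, with 36 of 37 negative and a median of -0.48, Rps13 being the exception. None of these medians carries a test. Without both WT2 and KO3 the median was -0.15 for the pseudogenes and -0.0063 for the 79 ribosomal protein genes.

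Rps13-ps1 was the pseudogene with the largest difference and 1 of the 9 genes of the whole table past the threshold. This processed copy of Rps13 (ENSMUSG00000066362.5) occupies chr8:87047689-87048226 on the plus strand, outside any other annotated gene. Its counts ran 847, 409 and 1767 over WT1 to WT3 against 84, 63 and 50 over KO1 to KO3. In CPM, WT stood at 34.2, 27.3 and 52.0 against 3.82, 2.70 and 2.44 for KO. Every WT library was thus far above every KO library, with WT3 the highest. The level fell from 37.8 ± 12.8 CPM to 2.99 ± 0.732 CPM (SD, n = 3 each; log2 fold change -3.66, SE 0.30, edgeR adjusted p = 0.00498).

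The call for Rps13-ps1 ended when KO2 was left out (log2 -3.59, edgeR adjusted p = 0.0689). It held with each other library left out (log2 -3.87 to -3.36) and without both WT2 and KO3 (log2 -3.72, edgeR adjusted p = 0.00217). Among its windows 12.1% were unique, and most of the rest were shared with Rps13 or its other copies. Its open reading frame was as long as the coding sequence of Rps13.

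For the parent Rps13 no difference was detected. Rps13 (chr7:116331505-116334195, minus strand) had counts of 3536, 2129 and 3482 in WT against 3876, 3275 and 1834 in KO, and the groups overlapped (log2 0.07, SE 0.26, edgeR adjusted p = 0.917). Within each library, Rps13-ps1 amounted to 24.0%, 19.2% and 50.7% of the Rps13 counts in WT and to 2.17%, 1.92% and 2.73% in KO. This ratio, which does not depend on library scaling, differed by -3.66 on the log2 scale (exact permutation p = 0.1, the smallest possible). It compares libraries, not the levels of the 2 genes, since lengths differ.

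Rps13-ps2, the copy identical to the parent, had more counts in KO than in WT2 and WT3. This pseudogene (chr7:88530446-88530898, minus strand) had counts of 319, 27 and 17 in WT against 338, 400 and 327 in KO. WT1 resembled the KO libraries, and WT2 and WT3 were far lower. On the CPM scale every KO library (15.4 to 17.2) lay above every WT library (at most 12.9), but the difference missed the threshold (log2 1.67, SE 0.83, edgeR adjusted p = 0.447). It was 3.95 without WT1 (edgeR adjusted p = 0.0400) and 1.11 without WT3. As a share of Rps13 counts, Rps13-ps2 stood at 9.02%, 1.27% and 0.488% in WT and 8.72%, 12.2% and 17.8% in KO, with WT1 inside the KO range.

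Rps13-ps4, with counts of 14, 3 and 21 in WT against 5, 8 and 14 in KO, showed no difference that could be detected at this depth (log2 -0.21, SE 0.63). It lies in an intron of Taf1c. A further copy, Rps13-ps5, had 12 counts in all, and Rps13-ps6, Rps13-ps7 and Rps13-ps8 had 0. Summing Rps13 with its copies that have a -ps symbol gave counts of 4719, 2568 and 5291 in WT against 4304, 3748 and 2227 in KO. Similar genes of another name, such as Gm15483, which shared 202 windows with Rps13-ps1, were not in the sum. The sum stood at log2 -0.15 (SE 0.23, edgeR adjusted p = 0.779). The summed counts thus did not show the difference seen for Rps13-ps1, which is the smaller part of the sum.

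Genes near Rps13-ps1 were examined for differences of their own. Within 1 Mb, 6 genes were tested and 0 passed the threshold. At an unadjusted edgeR p under 0.05, 1 was higher in KO (Gm10638, log2 1.16, SE 0.42), against 6.3% of all genes tested. The other 5 were Phkb (0.15), Lonp2 (0.28), Siah1a (-0.10), N4bp1 (0.08) and Zfp423 (0.13), all log2 fold changes. KO lay wholly above WT for 2 of the 6 (Gm10638 and Lonp2) and below for 0, against 10.1% and 9.39% of genes tested. Near Rps13-ps2, 4 genes were tested, 0 passed in edgeR and 0 had an unadjusted p under 0.05. Near the Rps15a copies described below, 0 genes passed in edgeR. At an unadjusted edgeR p under 0.05, 2 of 31 were higher and 1 lower near Rps15a-ps6. Near Rps15a-ps7 4 of 31 were higher, and near Rps15a-ps5 2 of 11, with 0 lower at both. Of all genes tested, 5.49% were lower at such a p. Whether the sequence of these loci differs between the WT and KO mice was not tested.

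**Figure D2:**
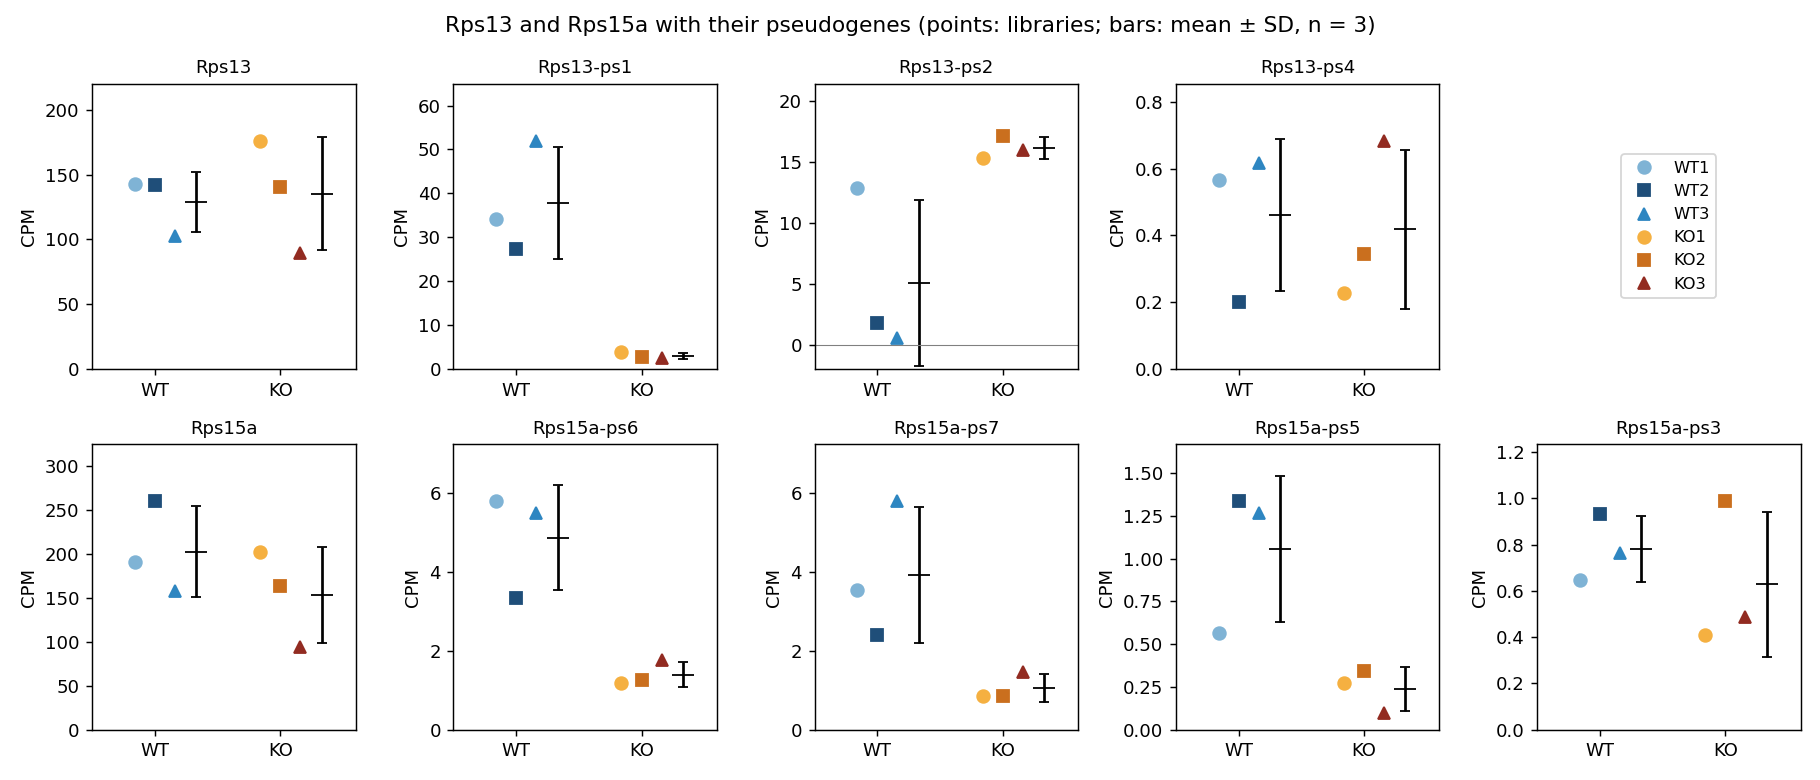
Level in CPM of Rps13, Rps15a and their pseudogenes, with WT and KO on the x axis, 1 point per library, and bars for mean ± SD (n = 3); each panel has its own y axis, and the lower bar of Rps13-ps2 in WT reaches below 0. Rps13-ps1, Rps15a-ps6, Rps15a-ps7 and Rps15a-ps5 have every KO point under every WT point, which their parents do not.

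Rps15a copies gave the next smallest p-values among the pseudogenes. Rps15a-ps6 (chr11:6172644-6173036, minus strand) had counts of 143, 50 and 186 in WT against 26, 29 and 36 in KO. Its CPM were 4.86 ± 1.33 in WT against 1.39 ± 0.316 in KO (SD, n = 3 each; log2 -1.81, SE 0.34). With edgeR this missed the threshold (adjusted p = 0.213), and with DESeq2 it passed (adjusted p = 0.00136). Without both WT2 and KO3 it passed with edgeR as well (log2 -2.20, adjusted p = 0.0478). It lies on the same strand in an intron of Nudcd3, whose log2 fold change was 0.16 (edgeR adjusted p = 0.639).

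Rps15a-ps7 (chr2:152185291-152185682, minus strand) had counts of 88, 36 and 197 in WT against 19, 20 and 30 in KO. The groups did not overlap, and WT3 was the highest library. The log2 fold change was -1.90 (SE 0.42), with an adjusted p of 0.305 by edgeR and 0.00930 by DESeq2. Rps15a-ps5, with an intact frame and in an intron of Lrrc8d on the opposite strand, had counts of 14, 20 and 43 in WT against 6, 8 and 2 in KO (log2 -2.10, SE 0.61, edgeR adjusted p = 0.339, DESeq2 adjusted p = 0.166). Pgam5 lies on the same chromosome as Rps15a-ps5 (chr5:105797321-105797713), at chr5:110259130-110269913. Since Rps15a-ps5 was included only through its WT counts, these p-values are a description. Rps15a-ps3 overlapped between the groups, with counts of 16, 14 and 26 in WT against 9, 23 and 10 in KO (log2 -0.29, SE 0.51).

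The parent Rps15a (chr7:118104372-118116188, minus strand) had counts of 4719, 3897 and 5367 in WT against 4445, 3807 and 1929 in KO (log2 -0.40, SE 0.29, edgeR adjusted p = 0.564). Relative to it, Rps15a-ps6 stood at 3.03%, 1.28% and 3.47% in WT and 0.585%, 0.762% and 1.87% in KO. KO3, where the parent was lowest, exceeded WT2 by this measure, so the ratios overlapped. For Rps15a-ps7 the ratios were 1.86%, 0.924% and 3.67% against 0.427%, 0.525% and 1.56%, again with an overlap. Rps15a-ps5 stood at 0.297%, 0.513% and 0.801% of its parent against 0.135%, 0.210% and 0.104%. It reached the minimum of 60 counts only through WT, so this separation is a description. Rps15a summed with its copies that have a -ps symbol stood at log2 -0.45 (SE 0.28, edgeR adjusted p = 0.514).

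An unadjusted edgeR p under 0.05 together with no overlap (KO below WT) was found for 8 pseudogenes, against 4.33% of all genes. Beside Rps13-ps1 and the 3 Rps15a copies these were 4 that did not pass the threshold. Rpl39-ps, a copy of the gene of a small protein of the large subunit, had counts of 73, 55 and 68 in WT against 37, 26 and 23 in KO (log2 -1.12, SE 0.38, edgeR adjusted p = 0.374). Rps6-ps4 is an identical copy of the coding sequence of Rps6, whose protein is the classical substrate of the ribosomal S6 kinases. It had counts of 319, 432 and 391 in WT against 252, 175 and 113 in KO (log2 -1.11, SE 0.39, edgeR adjusted p = 0.374). The value for Rps6-ps4 was -0.58 without WT2 and -0.36 without both WT2 and KO3.

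Rps27a-ps2 derives from the gene that encodes ubiquitin fused to a small-subunit protein. It had counts of 102, 51 and 92 in WT against 49, 43 and 33 in KO (log2 -0.84, SE 0.32, edgeR adjusted p = 0.390), and stayed between -0.99 and -0.68 with each library left out. Rpl17-ps3 had counts of 368, 452 and 482 in WT against 257, 306 and 210 in KO (log2 -0.75, SE 0.29, edgeR adjusted p = 0.402), and stood at -0.31 without WT2. The parents of these 4 were negative too, at -0.82 (SE 0.37) for Rpl39, -0.77 (SE 0.32) for Rps6, -0.28 (SE 0.58) for Rps27a and -0.77 (SE 0.36) for Rpl17. Unique windows made up 49.0% of Rpl39-ps, 0% of Rps6-ps4, 0.478% of Rps27a-ps2 and 18.5% of Rpl17-ps3.

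Rpl14-ps1, Rpl36a-ps2 and Rpl21-ps15 had an unadjusted edgeR p under 0.05 with overlapping groups, and each rested on WT2. Rpl14-ps1 had counts of 833, 1836 and 921 in WT against 730, 566 and 310 in KO, and its log2 fold change of -1.33 (SE 0.53) was -0.33 without WT2. Rpl36a-ps2, identical to its parent, had 275, 573 and 331 counts against 242, 171 and 100, and moved from -1.33 (SE 0.51) to -0.43. Rpl21-ps15 had 60, 320 and 100 counts against 85, 40 and 22, and moved from -1.97 (SE 0.82) to -0.28. In all 3 pseudogenes WT2 had the highest count although it was the library with the lowest total.

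Rps19-ps6 was, with Rps13-ps2, 1 of the 2 pseudogenes with every KO library above every WT library. It had counts of 27, 19 and 45 in WT against 49, 33 and 39 in KO (log2 0.59, SE 0.37, edgeR adjusted p = 0.517). It lies on the same strand in an intron of Tecpr2 (log2 0.39, edgeR adjusted p = 0.555).

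For the remaining pseudogenes of highest level no difference was detected at the threshold. Rps12-ps3, identical to its parent, had counts of 1332, 248 and 1651 in WT against 1154, 897 and 420 in KO (log2 -0.10, SE 0.43). Rps10-ps2 had 1087, 881 and 1367 counts against 1049, 674 and 364 (log2 -0.60, SE 0.32). Rpl31-ps8, also identical to its parent, had 1076, 339 and 1119 against 801, 692 and 411 (log2 -0.20, SE 0.27). In these 3 either WT2 or KO3 had the lowest count.

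Rpl9-ps6, annotated as protein coding, had counts of 834, 342 and 1175 in WT against 718, 636 and 422 in KO (log2 -0.18, SE 0.22). Rps16-ps2, identical to its parent, had 820, 496 and 1055 against 697, 588 and 341 (log2 -0.40, SE 0.22). Rpl3-ps1 had 519, 551 and 674 against 520, 414 and 271 (log2 -0.50, SE 0.29). Their parents encode core proteins of both subunits. Rpsa-ps10 was the most even, with 606, 319 and 787 counts against 511, 444 and 389, or 23.0 ± 1.61 CPM against 20.4 ± 2.43 CPM (SD, n = 3 each; log2 -0.17, SE 0.17).

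The parents of the abundant pseudogenes had log2 fold changes of -0.53 (SE 0.30) for Rps12, -0.48 (SE 0.29) for Rps10, -0.62 (SE 0.30) for Rpl14 and -0.70 (SE 0.33) for Rpl31. Those of Rpl9, Rps16, Rpl3 and Rpsa were -0.66 (SE 0.33), -0.36 (SE 0.29), -0.39 (SE 0.26) and -0.29 (SE 0.25). None passed the threshold. The median difference between a pseudogene's log2 fold change and that of its parent was 0.11.

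**Figure D3:**
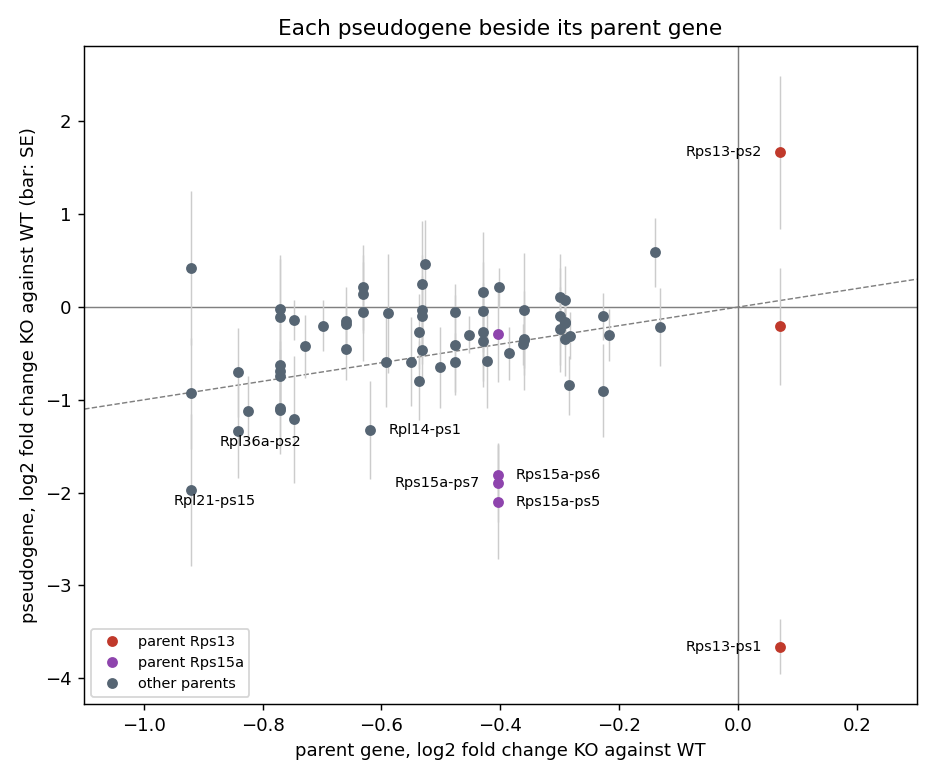
Log2 fold change (KO against WT) of each of the 71 pseudogenes tested on the y axis, with its SE as a bar, against that of its parent gene on the x axis; the dashed line marks equal values and colours mark the parents Rps13 and Rps15a. Rps13-ps1 (-3.66) and Rps13-ps2 (1.67) lie on opposite sides of a parent at 0.07, and 3 of the 4 Rps15a copies lie near -2 with a parent at -0.40.

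Ribosomal protein genes as a list gave the setting for these values. Of 79 such genes 78 had a negative log2 fold change, with a median of -0.48, and 0 passed the threshold in edgeR or DESeq2. At an unadjusted edgeR p under 0.05, 5 were lower (Rpl21, Rps6, Rpl23 and Rpl39 among them) and 0 higher, where 5.49% of all genes tested were lower and 6.3% higher. The count of 5 of 79 is near that background. WT2 was the highest library for 71 of the 79 and KO3 the lowest for 77, compared with 27.2% and 26.6% of all genes tested. Among the pseudogenes, WT2 was the highest library for 26 of 71 and the lowest for 15, and KO3 was the lowest for 33. The part of these 2 libraries in the difference was measured by leaving them out, as given above.

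Neighbouring gene groups of translation were also negative on balance, with 0 members past the threshold in edgeR or DESeq2. All 15 listed translation factors of the kind whose mRNAs carry a 5′ terminal oligopyrimidine tract were negative (median -0.47). At an unadjusted edgeR p under 0.05, 2 of them were lower and 0 higher. Of 20 ribosome biogenesis genes 15 were negative (median -0.41), and 7 were lower and 0 higher at such a p. Of all genes tested 50.2% were negative, and 5.49% were lower and 6.3% higher at such a p. The 91 genes tested that have a -ps symbol and are copies of other genes had a median of -0.27, and 62 were negative. In edgeR 0 of them passed the threshold, and 9 were lower and 1 higher at an unadjusted p under 0.05. DESeq2 called 3 of 92 lower and 0 higher, the same counts as among the ribosomal protein pseudogenes. KO and WT libraries did not overlap for 8 with KO below and 4 with KO above, against 9.39% and 10.1% of all genes.

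Markers of other cell types were summed in each library as well. Endothelial markers stood at 200.2 to 359 CPM in WT and 255 to 485 in KO, and all 4 had a positive log2 fold change (median 0.42). Erythrocyte markers stood at 722 to 901 CPM in WT and 499 to 758 in KO, and all 5 were negative (median -0.40). Summed levels were 6.95 to 38.9 CPM in WT and 1.73 to 32.7 in KO for skeletal muscle, where all 6 were negative (median -0.73). Those of macrophages were 60.4 to 102 against 45.3 to 85.3, and those of lymphocytes 1.501 to 4.24 against 3.62 to 5.32. Of 4 macrophage markers 2 were negative (median -0.02). Only 3 of 6 lymphocyte markers could be tested in edgeR, and all 3 were positive (median 0.40). With edgeR or DESeq2 0 of these markers passed the threshold. At an unadjusted edgeR p under 0.05, 1 endothelial marker was higher and 1 erythrocyte marker lower, against 6.3% and 5.49% of all genes tested. Of the 9 brown adipocyte markers 6 were negative and 3 positive (median -0.16). DESeq2 called 1 of these 9 higher in KO and 0 lower, against 0.566% and 0.553% of genes, and edgeR called 0. At an unadjusted edgeR p under 0.05, 1 of the 9 was higher and 0 lower. WT and KO ranges overlapped for each list, and the part of these cells in the pseudogene values was not tested.

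Within a library the count of a pseudogene relative to its parent was nearly constant in some abundant pairs, apart from WT2. For Rpl14-ps1 it was 17.4%, 42.9% and 17.5% in WT1 to WT3 and 17.9%, 17.8% and 16.8% in KO1 to KO3. Rps12-ps3 stood at 30.2%, 6.20% and 32.1% in WT and 27.9%, 28.4% and 23.2% in KO. For Rpl31-ps8 the values were 23.0%, 6.35% and 20.6% against 19.3%, 19.8% and 20.99%. WT2 was the one library far from the rest, above them for Rpl14-ps1 and below them for Rps12-ps3 and Rpl31-ps8.

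Further pairs showed the same separation of WT2. Rpl10-ps3 was at 7.99%, 0.914% and 8.996% of Rpl10 in WT and 6.23%, 7.39% and 8.57% in KO. Rpl35a-ps2 was at 11.6%, 1.78% and 12.9% of Rpl35a in WT and 12.5%, 13.5% and 13.2% in KO. Rpl21-ps15 was high in WT2 instead, at 18.8% of Rpl21 against 4.10% to 8.84% in the other libraries.

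Over the 31 pairs with 500 or more summed pseudogene counts, WT2 was the lowest library in 16 and the highest in 6. It was lower than every other library by over 1.5 times in 8 and higher by over 1.5 times in 2. For no other library did the 2 counts together exceed 2. The median coefficient of variation of the ratio over the 6 libraries was 23.7%, and 15.8% without WT2, against 23.6% to 26.5% when any other library was left out. Over all 74 pairs this median was 35.3%, and 23.3% without WT2. WT2 stood apart in this way in 5 of 14 pairs with no unique window, in 3 of 5 with under 10% and in 2 of 12 with 10% or more. WT2 also had the highest mitochondrial share (43.0%) and the lowest total count, and their part in the ratio was not tested.

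**Figure D4:**
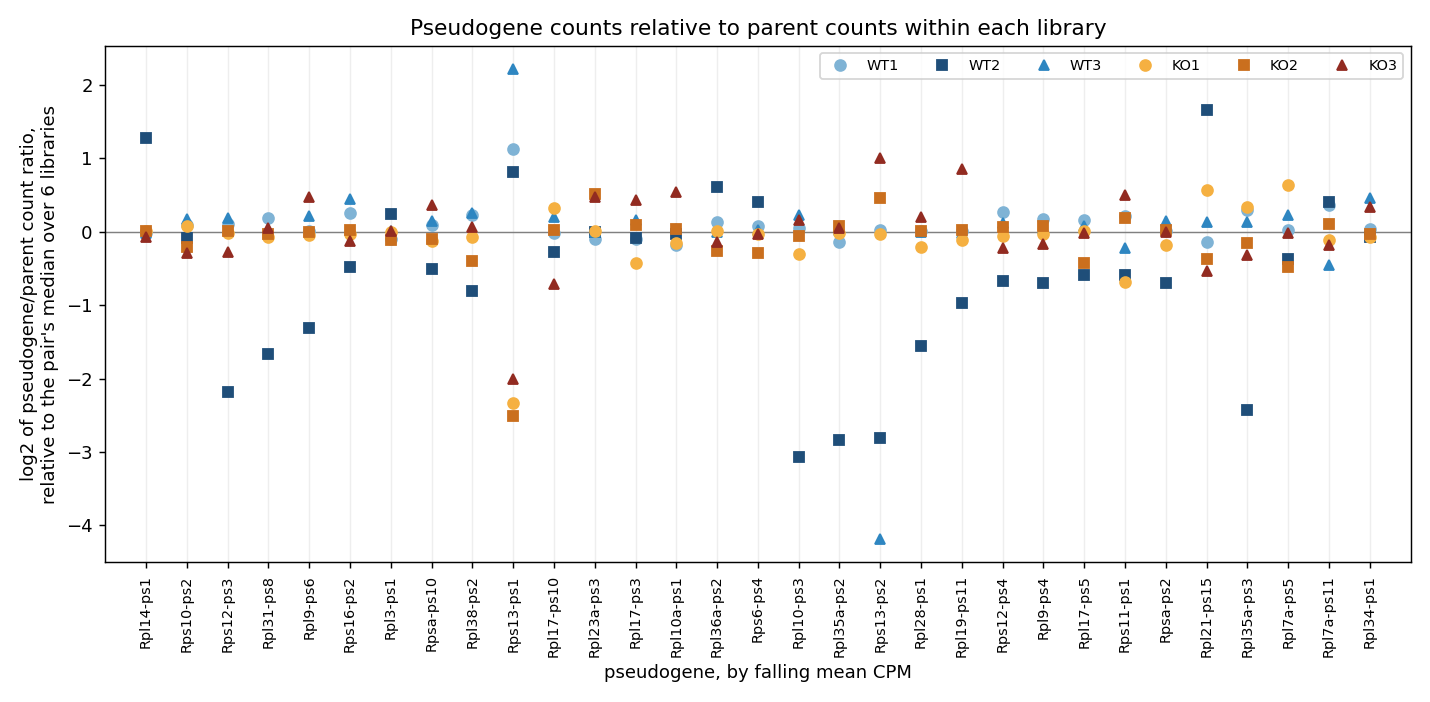
Count of each pseudogene divided by that of its parent in the same library, as the log2 difference from the pair's median over the 6 libraries (y axis), for the 31 pairs with 500 or more summed pseudogene counts (x axis, by falling mean CPM). Most points lie near 0; WT2 departs downward in 8 pairs and upward in 2 by over 1.5 times from every other library, and the 3 KO points of Rps13-ps1 lie together below its WT points.

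Between genotypes the ratio to the parent differed in both directions. Of the 74 pairs, 30 had a lower and 44 a higher mean log2 ratio in KO, with a median difference of 0.09. Regardless of sign the median difference was 0.28, and 25 pairs differed by more than 0.5 and 8 by more than 1. The groups did not overlap in 6 pairs, which were lower in KO for Rps13-ps1, Rps15a-ps5 and Rps6-ps4 and higher for Rpl23a-ps3, Rps19-ps6 and Rps25-ps1. These are 3 of 74 in each direction. The levels of all genes tested did not overlap in 9.39% with KO below and 10.1% with KO above. A level is another measure than a ratio, and no such share was made for ratios. Each of the 6 reached the smallest possible exact permutation p of 0.1, which is 0.925 after adjustment over the pairs. The median difference turned to -0.08 without WT2 and to -0.04 without KO3.

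The 74 pseudogenes were spread over 20 chromosomes. Another annotated gene overlapped 35 of them, and 27 lay in an intron of a protein-coding gene. Where counts of such a host are high, reads of unspliced host RNA on the same strand can fall on a pseudogene, and on the opposite strand too if counting ignored strand, which is not given in the sources used here. The pairs of highest pseudogene level were Rpl14-ps1 with Trpm4, Rps12-ps3 with Pdzd8, Rps16-ps2 with Adgrd1, Rpl38-ps2 with Gm11077, Rpl36a-ps2 with Ddah1, Rps6-ps4 with 2600014E21Rik, Rpl28-ps1 with Zranb3 and Rpl19-ps11 with Gm27288.

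In these pairs the host was counted less than the pseudogene, with 1292 counts for Trpm4 against 5196 for Rpl14-ps1 and 315 for Adgrd1 against 3997 for Rps16-ps2. Gm11077 and Gm27288 had 0 counts. Log2 fold changes of the hosts were 0.03 for Trpm4, -0.05 for Pdzd8, -0.07 for Adgrd1 and 0.03 for Zranb3, none past the threshold. Ddah1, on the same strand as Rpl36a-ps2, stood at -0.61 (edgeR adjusted p = 0.555).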

How the data were processed

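Poly(A) RNA was sequenced from interscapular brown fat of 3 WT and 3 KO mice. The authors deposited unnormalized whole-number counts. The submitters' processing notes name build mm10 with featureCounts 1.6.2, HISAT2 2.1.0 and DESeq2. Not given in the sources used here are the annotation, the strand setting and the handling of reads that map to several places. Such reads of a pseudogene and its parent may thus be split, dropped or assigned to either. Of 53715 identifiers 53620 matched GENCODE M21 symbols without version. Columns left unmapped numbered 0.

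Genes were filtered with filterByExpr (minimum count 10, minimum total 15), leaving 15123 genes, scaled with TMM and tested with edgeR 4.0.16 quasi-likelihood (limma 3.58.1, R 4.3.3), Benjamini-Hochberg threshold 0.05, genotype only. Identical library pairs numbered 0. The script was tested on simulated data. Ratios of pseudogene to parent counts used a prior count of 0.5 on the log2 scale and an exact permutation test. Sequence likeness came from local alignment (Biopython 1.88) and 50-base windows of GENCODE M21 transcripts. Tables used Python 3.11.15. p-values measure the spread between these animals.

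The pseudogenes, lists and tests were chosen with earlier results of these data known. Named were Rps13-ps1, pseudogenes past the threshold in edgeR or DESeq2, up to 10 with an unadjusted p under 0.05 and no overlap, the 8 of highest mean CPM, and their parents. Rps13-ps2, Rps13-ps4, Rps15a-ps3, Rpl36a-ps2, Rpl21-ps15, Rpl10-ps3, Rpl35a-ps2, Rps19-ps6, Rpl23a-ps3 and Rps25-ps1 were named after their values were seen. The values of 1 pseudogene and 1 ribosomal protein gene are not reported here, and both are in the counts. Alternatives were DESeq2 1.42.0, its size factors, limma-voom, no filter, a stricter filter (1 CPM in 3 libraries), a replicate block, a robust fit, libraries left out, mitochondrial genome genes left out, and other minimum counts. Limiting the group to pseudogenes with 10% or more unique windows and summing families were added after seeing the data. So were the neighbours of Rps13-ps2 and of the Rps15a copies.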

Additional observations from a re-analysis of the deposited data

How the results depend on the processing

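Rps13-ps1 passed the threshold under every alternative run except without KO2 (log2 -3.59, edgeR adjusted p = 0.0689), with log2 fold changes of -3.87 to -3.36. The number of pseudogenes past the threshold was 1 with all libraries, 3 with DESeq2, 8 with no filter and 2 without both WT2 and KO3, and 0 to 2 with single libraries left out. Among all genes it was 9, and 168 with DESeq2, 663 with no filter, 5 with the replicate block, 27 without both WT2 and KO3, and 0 to 17 with single libraries left out. With no filter the median total degrees of freedom were 111496, against 9.61 with the filter and all 6 libraries. The median log2 fold change of the pseudogenes ran from -0.56 to -0.17, that of ribosomal protein genes from -0.71 to -0.22 and that of the log2 ratio from -0.08 to 0.23 with single libraries left out. The ribosomal protein median was -0.0063 without both WT2 and KO3, and the median of the log2 ratio -0.19.

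Values near 0 changed sign. Rps12-ps3 ran from -0.46 to 0.19, Rpl31-ps8 from -0.41 to 0.045, Rps13-ps4 from -0.74 to 0.10 and Rpl10-ps3 from -0.51 to 0.29 with single libraries left out. Rpl10-ps3 was at 0.19 with limma-voom and 0.26 with the replicate block. Without both WT2 and KO3, Rpl3-ps1 was at 0.023, Rpl21-ps15 at 0.051 and Rps13-ps4 at -1.03. With single libraries left out, Rpl3-ps1 ran from -0.72 to -0.16 and Rpl21-ps15 from -2.63 to -0.28. Rps13 stood at 0.07 alone and at -0.15 summed with its copies that have a -ps symbol, a sum added after seeing the data. Same-numbered libraries correlated at -0.11, 0.10 and 0.09 in their deviations from the group means, so the numbers were not taken to pair the animals. With the replicate block 1 pseudogene passed (Rps13-ps1, log2 -3.62, edgeR adjusted p = 0.00520).

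Depth limits the pseudogenes under 1 CPM, where single libraries hold few counts, and likeness to the parent limits those with no unique window.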
